A study of Mus musculus with 35 samples.

Results

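Transcription factors that pattern the embryonic forebrain were followed in RNA-seq libraries of the adult mouse amygdala. The list held 49 genes, given by symbol, and all 49 were found among the 52636 Ensembl genes of the count files. They were grouped by the origin of the cells for which they are best known: 15 pallial factors, 17 subpallial factors, 5 hypothalamic and other diencephalic factors, and 12 factors used by both pallial and subpallial cells.

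The brains of female mice were cut with the aim of reaching the basolateral nucleus of the amygdala, and cells were collected with a laser microscope. They were pooled per mouse and portion, so that each library is 1 portion of 1 mouse. There were 16 libraries of the anterior and 19 of the posterior portion, from 19 mice, of which 8 were C57BL/6J, an inbred strain, and 11 were B6D2F1N, a hybrid strain. Mice of each strain lived either in standard cages or in enriched cages, the latter with a playground opened for 1 h per day from postnatal day (PND) 77. The anterior groups held 4 standard and 2 enriched C57BL/6J mice and 5 standard and 5 enriched B6D2F1N mice, and the posterior groups held 4, 4, 5 and 6 mice in the same order. All mice had been trained from PND 70, for 37 to 90 days, for a test of cognitive judgement bias, by which some were labelled optimists (4 anterior and 4 posterior libraries) or pessimists (4 anterior and 5 posterior libraries). Portions are named here as the sample labels name them. The coordinates stated in the study's methods put the posterior portion nearer to bregma than the anterior one, which is the reverse of the anatomical order. Which of the 2 was followed in the labels was not tested, and every sign between portions would reverse if the names were exchanged.

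The amygdala is built from several sources in the embryo. Its basolateral nuclei consist mostly of glutamatergic neurons from the pallium, the dorsal wall of the telencephalon, where Pax6 and Emx2 set up progenitors and Tbr1 and the Neurod genes act in the young neurons. Its GABAergic interneurons, intercalated cells and central nuclei come from the subpallium, where Dlx genes define the ganglionic eminences, Nkx2-1 with Lhx6 and Lhx8 the medial one, and Sp8, Meis2, Tshz1 and Foxp2 the lateral and caudal ones. Otp and Sim1 mark cells that reach the medial amygdala from the hypothalamic border, while Tcf7l2, Lef1 and Olig3 are factors of the thalamus and its progenitors. Many of these genes stay on in the adult, where their transcripts serve as a record of which kinds of cells a sample holds.

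Between 16938534 and 27352623 reads were counted on genes per library. Several libraries stood apart. The B6D2F1N standard mouse 1 had 0 reads of Xist, the RNA of the inactive X chromosome, in both of its libraries, against at least 1191 reads in the other 33. In the anterior library of B6D2F1N standard mouse 3, the 10 markers of hypothalamic peptide neurons summed to 6665 CPM (reads of the gene scaled to a common library total), against 4.85 to 120 CPM in the other 15 anterior libraries. In the posterior libraries of B6D2F1N enriched mice 1 and 3, the 10 markers of the choroid plexus, the epithelium in the ventricles that makes cerebrospinal fluid, summed to 14158 and 14707 CPM. The anterior library of B6D2F1N enriched mouse 2 had the fewest genes with a read, 18580 against 18959 to 25531 in the others. It had the highest anterior level of 6 factors, Satb1, Mef2c and Neurod2 among them. Without this mouse alone, Neurod2, Nr2f1 and Pax6 lost their calls between portions over both strains. Rspo2, 1 of the 10 excitatory neuron markers used here, had 192 ± 88.0 CPM in anterior (SD, n = 16) and 21.8 ± 14.1 CPM in posterior libraries (SD, n = 19). Every library had at least 1 read of it. The lowest value, 0.0427 CPM in posterior B6D2F1N standard mouse 4, was 1 read and is not resolved from 0. Calls between portions over both strains that were lost without B6D2F1N standard mice 1 and 3, or without B6D2F1N enriched mice 1 and 3, are named. Differences of factors that were not called are given with all mice only.

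Levels of the factors spanned a wide range. Of the 49, 39 had at least 1 read in every library and 44 reached a mean of 1 CPM over all libraries, including all 12 of the factors shared by pallium and subpallium. Per kilobase of exon, which allows genes to be compared, the median factor stood at 2.54 CPM per kb. The most abundant was Lmo4, an adaptor protein that binds other transcription factors and marks basolateral projection neurons, with a level of 98.5 ± 27.2 CPM per kb in anterior libraries (SD, n = 16) and 36.6 ± 8.62 in posterior libraries (SD, n = 19). Neurod6, a helix-loop-helix factor of pallial projection neurons, was the most abundant pallial factor, with a level of 74.5 ± 24.3 CPM per kb in anterior and 27.5 ± 25.2 in posterior libraries. Mef2c, Lmo3 and Nr2f2 followed in that order at mean levels of 26.2, 22.3 and 18.3 CPM per kb.

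Among the subpallial factors, Tshz1, a zinc finger protein of intercalated cells, had the highest level, 6.81 ± 4.18 CPM per kb in anterior and 8.76 ± 4.2 in posterior libraries (SD, n = 16 and 19). Foxp1, Meis2 and Dlx1 had mean levels of 6.05, 4.82 and 4.09 CPM per kb, so that neighbours in this order differed by less than 1 SD. Of the diencephalic factors, Tcf7l2, the effector of Wnt signalling that stays on in thalamic neurons, stood highest with a level of 5.42 ± 3.65 CPM per kb in anterior and 11.0 ± 8.13 in posterior libraries.

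**Figure D1:**
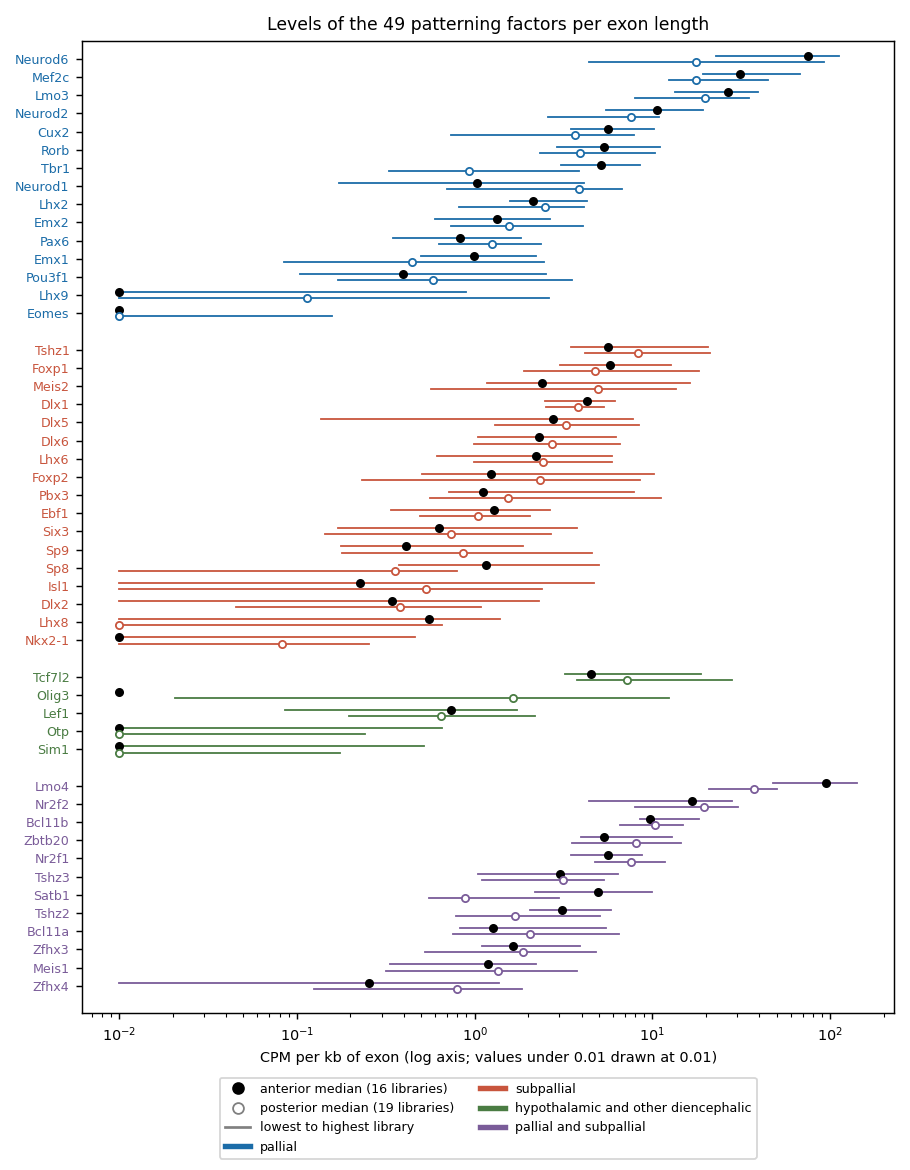
Level of each of the 49 factors in CPM per kb of exon on a log axis, grouped by origin. Filled points are anterior medians, open points posterior medians, and lines run from the lowest to the highest library. Lmo4, Neurod6 and Mef2c have the highest levels, while Eomes, Sim1 and Otp lie at the lower end.

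At the lower end, Eomes, a factor of pallial progenitors, had 0 reads in all 16 anterior and in 17 of 19 posterior libraries. Otp had 0 reads in 13 anterior and 15 posterior libraries, and Sim1 in 11 anterior and 16 posterior libraries. Nkx2-1, which defines the medial ganglionic eminence, reached at most 1.31 CPM in any library. A count of 0 at this depth allows up to 3 reads, equal to 0.11 to 0.177 CPM depending on the library, so low levels of these genes were not detectable.

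The question of how the 2 portions differ was addressed with the 16 mice that had a library of each, 6 C57BL/6J and 10 B6D2F1N, with the mouse as a block. All differences between portions are given as posterior minus anterior on the log2 scale. Over both strains, 16 of the 49 factors passed the threshold of an adjusted p of 0.05, with 6 higher and 10 lower in the posterior portion. Of all 29437 genes tested 8.6% passed, 3.91% higher and 4.69% lower. The factors were chosen with earlier results of these data known, and all genes include those with as few as 10 reads in total. The share of factors beside the share of all genes is therefore not a test of the list. DESeq2 called 17 factors (11.7% of all genes), and 19 had an unadjusted p under 0.05 (19.9% of all genes). The 16 were Neurod1, Pax6, Olig3, Tcf7l2, Nr2f1 and Zbtb20 (higher) and Tbr1, Neurod2, Neurod6, Cux2, Mef2c, Lhx8, Sp8, Satb1, Lmo4 and Tshz2 (lower). By origin these were 7 of 15 pallial, 2 of 17 subpallial, 2 of 5 diencephalic and 5 of 12 shared factors. The median difference of the 49 factors was 0.23, beside 0.12 for all genes. In C57BL/6J alone, 6 of the 48 factors tested passed, 1 higher and 5 lower, where 3.64% of all genes did, 1.54% higher and 2.1% lower. In B6D2F1N 9 of 49 passed, 4 higher and 5 lower, where 4.0% of all genes did, 1.62% higher and 2.37% lower. DESeq2 called 11 factors in C57BL/6J (5.96% of all genes) and 14 in B6D2F1N (7.18% of all genes). Tbr1, Neurod6, Olig3, Satb1 and Lmo4 passed in each strain, with the same sign.

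**Figure D2:**
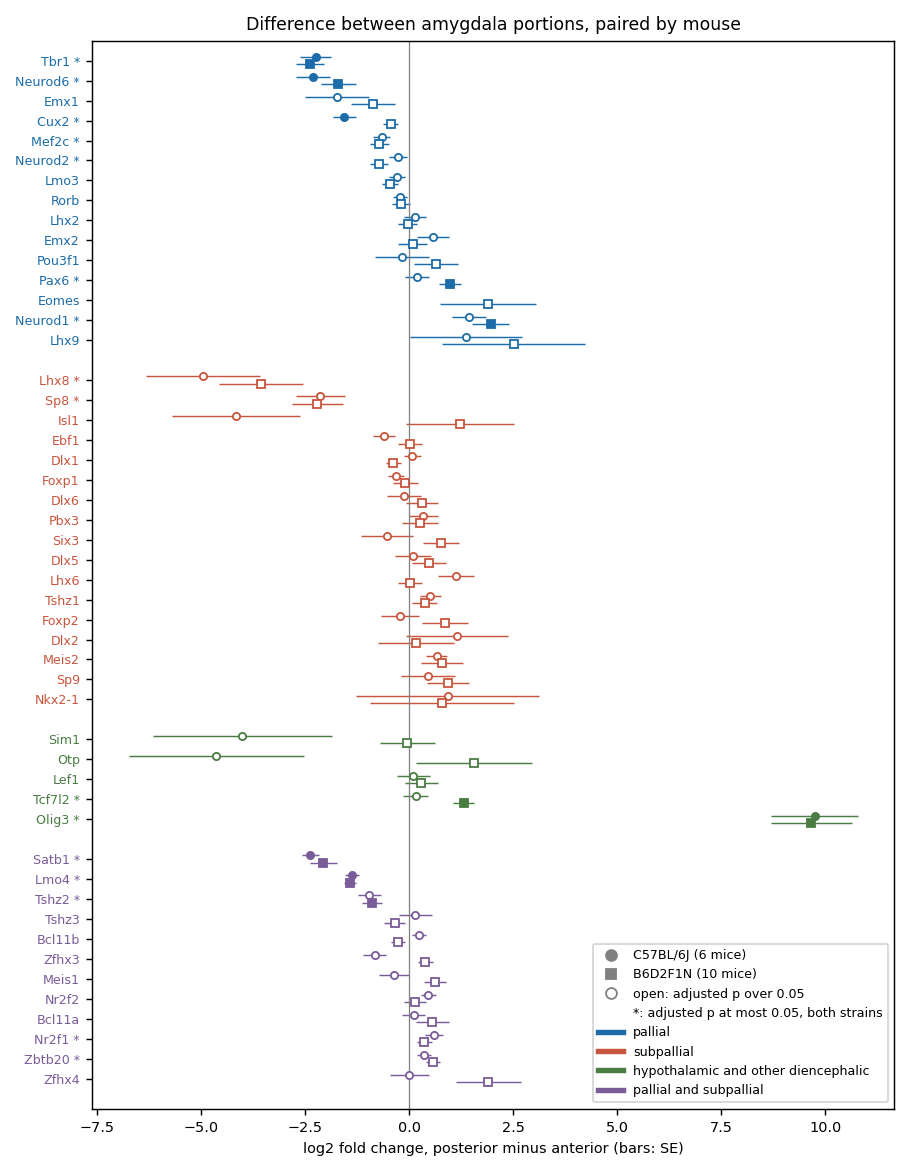
Log2 fold change between portions (posterior minus anterior) of each factor with its SE, in C57BL/6J (circles, 6 mice) and B6D2F1N (squares, 10 mice), grouped by origin. Filled symbols passed an adjusted p of 0.05 in that strain and asterisks mark the 16 factors that passed over both strains. Most pallial factors called lie to the left of 0, whereas Olig3 lies near 9.7 in both strains.

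Of the 15 pallial factors, 5 were lower and 2 higher in the posterior portion over both strains, and 8 did not pass. Of all genes, 4.69% passed and were lower, and 3.91% passed and were higher. Tbr1 (chr2:61802930-61814114, GRCm38, plus strand), the T-box factor of early-born pallial neurons, ranged in C57BL/6J from 24.4 CPM over a median of 26.9 to 29.1 CPM in the 6 anterior libraries and from 2.14 over 4.52 to 15.3 CPM in the 8 posterior libraries. The 2 ranges did not overlap. In B6D2F1N it ranged from 16.8 over 33.1 to 46.9 CPM in the 10 anterior and from 1.81 over 5.95 to 21.1 CPM in the 11 posterior libraries, where the ranges overlapped through B6D2F1N standard mouse 2, at 21.1 CPM posterior, and standard mouse 3, at 16.8 CPM anterior. Tbr1 was lower in the posterior library in 16 of 16 mice, 6 of 6 and 10 of 10. Its difference was -2.25 ± 0.36 (SE) in C57BL/6J (adjusted p = 0.00103) and -2.38 ± 0.33 in B6D2F1N (adjusted p = 0.00029).

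Neurod6 (chr6:55677822-55681263, minus strand) followed Tbr1 in direction but varied more. In C57BL/6J it ranged from 91.8 over 183 to 240 CPM in anterior libraries and from 12.1 over 31.3 to 182 CPM in posterior libraries. The high posterior value was that of C57BL/6J enriched mouse 1, the only C57BL/6J mouse in which Neurod6 was higher in the posterior library. In B6D2F1N the ranges were 49.1 over 151 to 204 CPM and 9.42 over 39.8 to 198 CPM, and they overlapped, with 8 of 10 mice lower in the posterior library. The difference was -2.31 ± 0.41 in C57BL/6J (adjusted p = 0.0023) and -1.70 ± 0.41 in B6D2F1N (adjusted p = 0.0235). The B6D2F1N call was lost without B6D2F1N enriched mice 1 and 3 (-1.17, adjusted p = 0.124), and when any of 5 single mice was left out (adjusted p up to 0.0752).

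Neurod2, a relative of Neurod6 in the same neurons, differed less, by -0.55 ± 0.16 over both strains (adjusted p = 0.0315), and Mef2c, a MADS-box factor needed for synapse number, by -0.68 ± 0.17 (adjusted p = 0.0122). Neurod2 ranged in B6D2F1N from 17.3 over 34.3 to 60.2 CPM in anterior and from 8.15 over 22.6 to 34.3 CPM in posterior libraries. Mef2c ranged there from 301 over 490 to 1066 CPM in anterior and from 194 over 276 to 707 CPM in posterior libraries, with the posterior values over 500 in B6D2F1N standard mice 4 and 5. The ranges overlapped for both genes in both strains. Neither passed in a single strain, and without B6D2F1N enriched mice 1 and 3 neither passed over both strains (adjusted p = 0.065 for Neurod2 and 0.0582 for Mef2c). The call of Neurod2 over both strains was lost when any of 6 single mice was left out (adjusted p up to 0.0777).

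Cux2, a homeobox factor of upper-layer cortical neurons, differed by -1.56 ± 0.27 in C57BL/6J (adjusted p = 0.00191). It ranged there from 35 over 49.2 to 103 CPM in anterior and from 7.39 over 20.9 to 38.7 CPM in posterior libraries, and it was lower in 6 of 6 mice. In B6D2F1N the ranges were 39.3 over 65.8 to 102 CPM and 32.3 over 53.9 to 79.5 CPM, and the difference of -0.45 ± 0.18 did not pass (adjusted p = 0.209). The difference between the strains in this contrast was 1.10 ± 0.33, with an unadjusted p of 0.00268 but an adjusted p of 1.0.

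Neurod1 and Pax6 were the pallial factors with higher levels in the posterior portion. Neurod1 (chr2:79452521-79456751, minus strand), a factor of newborn and granule neurons, ranged in C57BL/6J from 1.61 over 3.16 to 11.2 CPM in anterior and from 4.56 over 11.7 to 13.5 CPM in posterior libraries. In B6D2F1N the ranges were 0.471 over 2.0 to 7.8 CPM and 1.9 over 9.49 to 18.5 CPM. The ranges overlapped, but Neurod1 was higher in the posterior library in 6 of 6 and 8 of 10 mice, opposite to Neurod2 and Neurod6. Its difference was 1.76 ± 0.33 over both strains (adjusted p = 0.000547) and 1.96 ± 0.45 in B6D2F1N (adjusted p = 0.0162). In B6D2F1N it no longer passed without standard mice 1 and 3 (1.61, adjusted p = 0.0799). Exons of 2 other genes overlap 13.0% of its exon length, so reads from that stretch cannot be assigned with certainty.

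Pax6, which is kept in amygdala and olfactory cells of the adult, ranged in B6D2F1N from 4.07 over 8.95 to 21.3 CPM in anterior and from 8.84 over 15.1 to 27.7 CPM in posterior libraries. The high anterior value came from B6D2F1N standard mouse 3, and without that mouse the groups still overlapped. The difference was 0.69 ± 0.21 over both strains (adjusted p = 0.0423), which was lost when any of 13 of the 16 mice was left out (adjusted p up to 0.101) and without B6D2F1N enriched mice 1 and 3 (adjusted p = 0.152).

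The remaining 8 pallial factors did not pass over both strains. Emx1, a marker of the dorsal pallium, came nearest, with a difference of -1.18 ± 0.42 (adjusted p = 0.0842) at levels under 6 CPM, followed by Lmo3 with -0.39 ± 0.15 (adjusted p = 0.116). Lhx2, Emx2, Rorb and Pou3f1 differed by between -0.19 and 0.33. Lhx9, a factor of thalamic and amygdala neurons, was at 0 in 8 anterior and 4 posterior libraries and reached 25 CPM in posterior B6D2F1N enriched mouse 3. Its difference of 1.96 ± 1.26 had an adjusted p of 0.42.

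**Figure D3:**
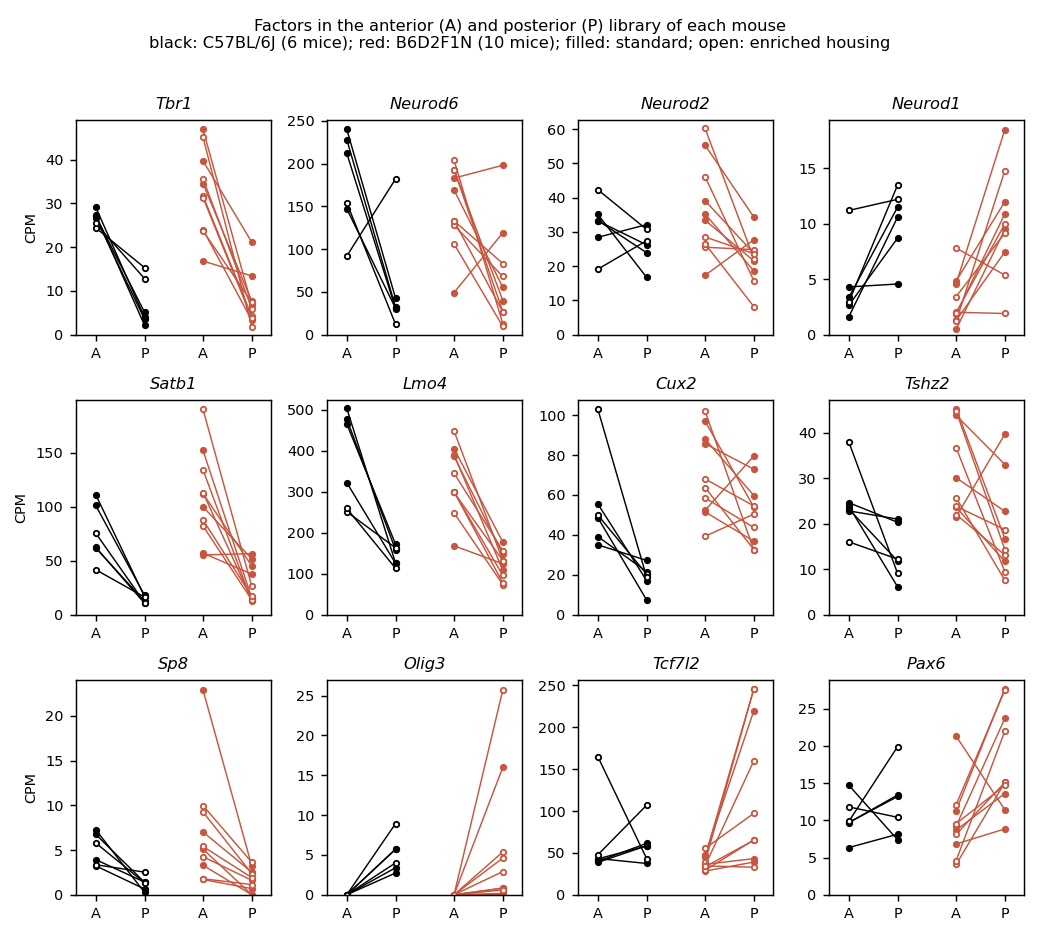
Level in CPM of 12 factors in the anterior (A) and posterior (P) library of each of 16 mice, joined by a line per mouse (black, 6 C57BL/6J; red, 10 B6D2F1N; filled, standard; open, enriched housing). Tbr1, Satb1 and Lmo4 fall in nearly every mouse, and Olig3 has 0 reads in all 16 anterior libraries.

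Sequences upstream of Neurod6 and Olig3, which is described further on, are shown because factors of this helix-loop-helix family bind the E-box CANNTG and because these genes differed in opposite directions between portions. They are the 250 bases before the transcription start from RefSeq on GRCm38.p6, 5′ to 3′ on the strand of the gene, with every CANNTG in capitals. That of Neurod6 is at chr6:55681264-55681513 on the minus strand and that of Olig3 at chr10:19356289-19356538. The starts are those of RefSeq transcripts, and the last 6 bases of the Olig3 stretch lie within the gene as GENCODE places it. For Tbr1 and Neurod1 the stretch before the RefSeq start overlaps the GENCODE gene, and it is not shown.
Neurod6: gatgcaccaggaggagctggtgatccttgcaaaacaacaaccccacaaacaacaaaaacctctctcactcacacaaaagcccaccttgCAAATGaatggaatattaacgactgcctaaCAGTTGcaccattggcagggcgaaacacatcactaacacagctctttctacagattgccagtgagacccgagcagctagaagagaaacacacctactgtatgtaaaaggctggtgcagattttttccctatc
Olig3: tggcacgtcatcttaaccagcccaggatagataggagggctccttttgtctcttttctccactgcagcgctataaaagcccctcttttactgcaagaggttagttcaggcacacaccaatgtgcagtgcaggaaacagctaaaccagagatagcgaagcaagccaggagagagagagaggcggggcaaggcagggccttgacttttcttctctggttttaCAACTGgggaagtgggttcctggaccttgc
Neurod6 held 2 such matches and Olig3 held 1. CANNTG, which reads the same on both strands, occurred in 66.2% of 32851 mouse promoters of the same length and in 59.1% of the 66 promoters listed for 42 of the 49 factors. TAATTA, the core bound by homeodomain factors of the LIM and Dlx kind and also the same on both strands, occurred in 4.84% and 6.06%. A match is a run of letters and not evidence of binding.

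The subpallial factors, which mark GABAergic lineages, included 2 of 17 that passed over both strains with edgeR, where 8.6% of all genes did. None passed within a single strain, where 3.64% (C57BL/6J) and 4.0% (B6D2F1N) of all genes did. Unadjusted p-values under 0.05 were found for 3 of the 17 over both strains, 6 in C57BL/6J and 3 in B6D2F1N. Of all genes 19.9%, 13.5% and 15.5% had one in the same order. DESeq2 called 2 factors in each of these 3 comparisons, where 11.7%, 5.96% and 7.18% of all genes passed. The Dlx genes did not pass, with differences over both strains of -0.20 ± 0.14 for Dlx1, 0.53 ± 0.76 for Dlx2, 0.34 ± 0.32 for Dlx5 and 0.15 ± 0.29 for Dlx6. Lhx6, which marks interneurons from the medial ganglionic eminence, differed by 0.43 ± 0.29 (adjusted p = 0.445).

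Sp8 and Lhx8 were the subpallial factors that passed over both strains. Sp8 (chr12:118846329-118852576, plus strand), a zinc finger factor of interneurons from the lateral and caudal eminences, ranged in C57BL/6J from 3.23 over 4.86 to 7.27 CPM in anterior and from 0.273 over 1.41 to 3.54 CPM in posterior libraries. In B6D2F1N it ranged from 1.71 over 5.25 to 22.9 CPM and from 0 over 1.92 to 3.63 CPM. The ranges overlapped in both strains, but Sp8 was lower in the posterior library in 16 of 16 mice. The difference was -2.17 ± 0.45 over both strains (adjusted p = 0.00183), and -2.14 ± 0.59 and -2.21 ± 0.61 within C57BL/6J and B6D2F1N (adjusted p = 0.0555 and 0.0512).

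Lhx8 (chr3:154306294-154330659, minus strand), a LIM homeobox factor of cholinergic and other neurons of the medial eminence, was low throughout. It ranged from 0.548 over 1.41 to 3.03 CPM in anterior and from 0 to 0.857 CPM in posterior C57BL/6J libraries, and from 0 over 1.45 to 3.5 CPM and 0 over 0.167 to 1.65 CPM in B6D2F1N. It was at 0 reads in 2 anterior and 10 posterior libraries. The fitted difference of -4.09 ± 0.84 (adjusted p = 0.00186) rests on libraries near the detection limit, and its size depends on how zeros are handled.

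Isl1, a factor of striatal and hypothalamic neurons, had differences of opposite sign in the 2 strains, -4.17 ± 1.54 in C57BL/6J and 1.23 ± 1.30 in B6D2F1N, neither of which passed. The difference between the strains had an unadjusted p of 0.0247 and an adjusted p of 1.0. Meis2, Foxp2, Tshz1, Sp9 and Six3 had differences between 0.32 and 0.76 over both strains with adjusted p-values from 0.218 to 0.718. Their highest anterior level was in 1 library, that of B6D2F1N standard mouse 3, with 195 CPM of Meis2, 168 of Foxp2, 120 of Tshz1, 9.41 of Sp9 and 20.5 of Six3. That library had the highest anterior level of 15 of the 44 factors with an anterior mean of at least 1 CPM, 12 of them subpallial. It was also the library with 6665 CPM of hypothalamic peptide markers, and it had the highest anterior sums of intercalated cell markers (511 CPM, against 64.0 to 211 CPM in the other 15), inhibitory neuron markers (2270 CPM) and central amygdala markers (907 CPM). The intercalated cell list itself holds Tshz1, Foxp2 and Meis2. The part of these cells in the levels of the subpallial factors was not tested.

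Of the 5 diencephalic factors, Olig3 and Tcf7l2 passed over both strains, both higher in the posterior portion, as were 3.91% of all genes. Olig3 (chr10:19356533-19358604, plus strand) encodes a helix-loop-helix factor of thalamic and hindbrain progenitors. It had 0 reads in all 16 anterior libraries. In posterior C57BL/6J libraries it had 3.39, 5.72, 2.73 and 5.71 CPM in the 4 standard mice and 4.0, 0.437, 8.93 and 8.06 CPM in the 4 enriched mice. In posterior B6D2F1N libraries it had 16, 0.174, 0.833, 0.0427 and 0.834 CPM in the 5 standard mice and 2.91, 25.7, 5.38, 0.602, 2.47 and 4.6 CPM in the 6 enriched mice. Of the 19 posterior libraries, 18 had more than 3 reads. Posterior B6D2F1N standard mouse 4 had 1 read, which is under the limit of 3 reads and not resolved from 0. B6D2F1N standard mice 2 to 5 were the lowest with B6D2F1N enriched mouse 4 and C57BL/6J enriched mouse 2.

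Taken against the mean CPM of 3 reads in the anterior libraries, the mean of posterior Olig3 was at least 31.2-fold higher in C57BL/6J. In B6D2F1N it was at least 37.3-fold higher. These are ratios of means and do not hold for each library. In B6D2F1N the posterior mean was 5.41 CPM and the median 2.47 CPM, beside 0.145 CPM for 3 anterior reads. The adjusted p-values were 0.000143 and 0.000718, and 7.47e-06 over both strains. Across the 19 posterior libraries its log2 level went with the summed level of 10 meningeal fibroblast markers (Pearson's r = 0.81, Spearman's rho = 0.75, and r = 0.76 without the 2 libraries farthest from the median). That sum was mostly the level of 1 gene, Dcn, which encodes the matrix protein decorin. With Dcn alone r was 0.77, and with the other 9 markers r was 0.25. The markers summed to 37.7 to 118 CPM in anterior and 56.1 to 1771 CPM in posterior libraries, and of the 10 only Dcn passed between portions. With the choroid plexus markers r was -0.17. These are descriptions over libraries that share their preparation, and the part of such cells in the Olig3 level was not tested.

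Tcf7l2 (chr19:55741820-55933654, plus strand) was higher in the posterior portion in B6D2F1N. It ranged there from 28.3 over 35.5 to 55.4 CPM in anterior and from 32.9 over 65.5 to 246 CPM in posterior libraries, where 4 libraries lay at 160 CPM or more: standard mice 2 and 3 and enriched mice 3 and 6. It was higher in the posterior library in 9 of 10 mice, by 1.31 ± 0.26 (adjusted p = 0.00499). In C57BL/6J the ranges were 38.7 over 43.1 to 165 CPM and 37.4 over 60 to 142 CPM, the difference was 0.16 ± 0.29 (adjusted p = 0.907), and the 165 CPM came from the anterior library of enriched mouse 1. The difference between the strains was 1.15 ± 0.43, with an unadjusted p of 0.0122 and an adjusted p of 1.0.

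The 10 markers of thalamic neurons, which include Tcf7l2 and Lef1, summed to 155 to 793 CPM in anterior and 197 to 1315 CPM in posterior libraries, with the highest anterior sum in C57BL/6J enriched mouse 1, and 3 of the 10 passed between portions, all higher. They were Tcf7l2 itself, Slc17a6, a glutamate transporter, and Calb2, which encodes the calcium-binding protein calretinin and was higher by 1.84 ± 0.34 over both strains (adjusted p = 0.000509). Across the 19 posterior libraries the sum of the 8 markers that are not in the factor list went with Tcf7l2 (r = 0.62, rho = 0.45) and with Lhx9 (r = 0.62, rho = 0.65). Oligodendrocyte markers summed to 23938 and 19835 CPM in posterior B6D2F1N standard mice 2 and 3. In posterior B6D2F1N enriched mice 3 and 6 they summed to 11257 and 11894 CPM. Their highest sum, 32296 CPM, was in anterior B6D2F1N enriched mouse 1, where Tcf7l2 stood at 55.4 CPM. The part of thalamic cells, oligodendrocytes or other cells in the Tcf7l2 level was not tested. In these bulk libraries, fewer cells of a type and less RNA per cell cannot be told apart. Without B6D2F1N standard mice 1 and 3, or without B6D2F1N enriched mice 1 and 3, Tcf7l2 no longer passed over both strains (adjusted p = 0.0552 and 0.054) but still passed in B6D2F1N (adjusted p = 0.0216 and 0.0212).

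Lef1, the partner of Tcf7l2 in Wnt signalling, differed by 0.23 ± 0.29 (adjusted p = 0.733). Otp and Sim1, the hypothalamic factors, were near 0 in most libraries. Their highest values were 1.9 CPM of Otp in an anterior C57BL/6J library and 4.5 CPM of Sim1 in the anterior library of B6D2F1N standard mouse 3, and their differences had adjusted p-values of 0.932 and 0.453.

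Of the 12 shared factors, 5 passed over both strains, where 8.6% of all genes did. Lmo4 (chr3:144188530-144205220, minus strand) ranged in C57BL/6J from 251 over 394 to 503 CPM in anterior and from 90.2 over 133 to 172 CPM in posterior libraries, with no overlap. In B6D2F1N it ranged from 168 over 323 to 448 CPM and from 73.5 over 132 to 177 CPM, with an overlap that came from the 168 CPM of standard mouse 3. It was lower in the posterior library in 16 of 16 mice, by 1.37 ± 0.17 on the log2 scale in C57BL/6J (adjusted p = 8.86e-05) and by 1.43 ± 0.15 in B6D2F1N (adjusted p = 3.32e-05). Over both strains its adjusted p of 3.79e-09 was the smallest of the 49 factors.

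Satb1 (chr17:51736187-51833290, minus strand), a chromatin organiser of interneurons and deep cortical neurons, ranged in C57BL/6J from 41.6 over 68.9 to 111 CPM in anterior and from 10.6 over 14.3 to 24.8 CPM in posterior libraries, with no overlap. In B6D2F1N the ranges were 55.2 over 106 to 190 CPM and 12.4 over 17.8 to 56.5 CPM, and they overlapped through standard mouse 5, the only mouse in which Satb1 was not lower in the posterior library. The difference was -2.37 ± 0.20 in C57BL/6J (adjusted p = 1.44e-06) and -2.06 ± 0.32 in B6D2F1N (adjusted p = 0.000848). In no setting tried for these comparisons, single mice left out included, did Lmo4, Satb1, Tbr1 or Olig3 lose its call.

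Tshz2, Zbtb20 and Nr2f1 completed the group. Tshz2, a zinc finger factor, was lower in the posterior library in 6 of 6 and 9 of 10 mice, by 0.90 ± 0.19 over both strains (adjusted p = 0.00218), but exons of 2 genes on the other strand cover 67.5% of its exon length, so that its reads cannot be assigned with certainty. Zbtb20, a zinc finger factor of hippocampal neurons and astrocytes, ranged in B6D2F1N from 125 over 163 to 396 CPM in anterior and from 109 over 255 to 448 CPM in posterior libraries. It was higher by 0.50 ± 0.12 over both strains (adjusted p = 0.00673). Nr2f1, a nuclear receptor that sets caudal fates in the pallium, was higher by 0.47 ± 0.14 (adjusted p = 0.04), and lost this call when any of 11 single mice was left out (adjusted p up to 0.0971) and without B6D2F1N standard mice 1 and 3 (adjusted p = 0.0626). Bcl11a, Bcl11b, Meis1, Nr2f2, Tshz3, Zfhx3 and Zfhx4 did not pass. Zfhx3 had opposite signs in the strains, -0.83 ± 0.28 in C57BL/6J and 0.39 ± 0.19 in B6D2F1N, and the difference between them had an unadjusted p of 0.00168 and an adjusted p of 1.0.

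No factor passed the test of a portion difference that depends on strain with edgeR, where 0.0% of all 29437 genes did. DESeq2 called none either, and 5 factors had an unadjusted p under 0.05, as did 2.96% of all genes: Otp, Tcf7l2, Cux2, Zfhx3 and Isl1.

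A companion list of 104 other forebrain transcription factors and cofactors gave a view of the same families. Over both strains 12 of the 100 tested passed, 7 higher and 5 lower in the posterior portion, where 8.6% of all genes did, 3.91% higher and 4.69% lower. Sox5, a factor of corticofugal neurons, was lower by 1.29 ± 0.14 on the log2 scale (adjusted p = 3.86e-07), with 116 ± 26.8 CPM in anterior (SD, n = 16) and 49.1 ± 18.5 CPM in posterior libraries (SD, n = 19). Lmx1a and Otx2, factors of the roof plate and choroid plexus, were higher, with at most 1 and 57 reads in any anterior library and up to 126 and 339 reads in a posterior one. Esr1, the estrogen receptor of medial amygdala neurons, was higher by 1.68 ± 0.36 (adjusted p = 0.00245) and Lmo1, a relative of Lmo4, by 2.15 ± 0.51 (adjusted p = 0.00642), opposite in sign to Lmo4.

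Marker lists of other cell types were counted in the same comparison, where 8.6% of all genes passed, 3.91% higher and 4.69% lower. All 10 choroid plexus markers and 9 of 10 ependymal markers were higher in the posterior portion, where the choroid plexus sum ranged from 140 to 14707 CPM, against 11.6 to 968 CPM in anterior libraries. Of 10 excitatory neuron markers, which include Tbr1, Neurod2 and Neurod6, 6 were lower and 1 was higher. The 1 that was higher was Slc17a6, the glutamate transporter of thalamic and medial amygdala neurons, by 1.46 ± 0.24 (adjusted p = 0.000122), while Slc17a7, the transporter of pallial projection neurons, was lower by 1.27 ± 0.18 (adjusted p = 2.89e-05). Of 10 inhibitory neuron markers 2 were lower and none was higher. None of the 10 oligodendrocyte and none of the 10 striatal projection neuron markers passed, and 1 of 10 did for microglia and for endothelial cells (both lower) and for hippocampal neurons (higher). Of 10 astrocyte markers 3 were higher and 1 was lower, of 10 hypothalamic peptide markers 1 was higher and 1 lower, of 6 intercalated cell markers 2 were higher, and of 8 central amygdala markers 2 were lower. The summed excitatory markers ranged from 2386 to 5824 CPM in anterior and from 1479 to 6127 CPM in posterior libraries. Within the posterior portion, Neurod6 went with the 10 hippocampal neuron markers (r = 0.73, rho = 0.65 over 19 libraries, r = 0.54 without 2 of them), whose sums lay between 325 and 739 CPM. With the 7 excitatory neuron markers outside the factor list, Neurod6 had r = 0.48 (rho = 0.45, r = 0.32 without 2 libraries). With the same 7 markers Tbr1 had r = 0.37 (rho = 0.25, r = 0.17 without 2 libraries). Neurod1 had r = -0.08 with the choroid plexus markers (rho = 0.03). The part of such cells in the differences of the factors was not tested.

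**Figure D4:**
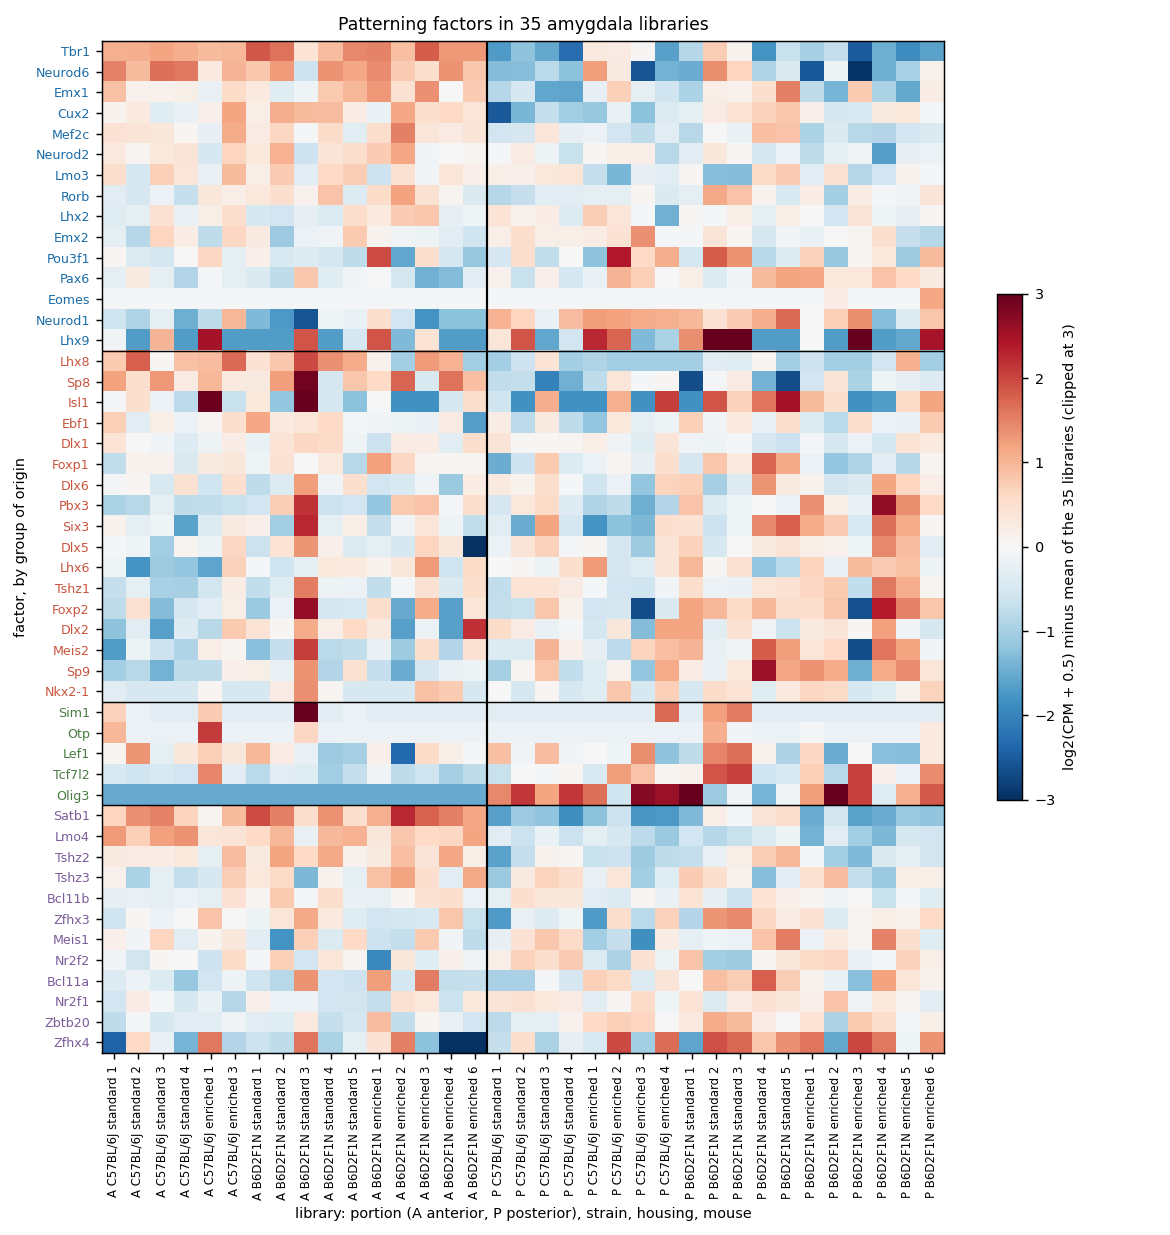
Log2 level (CPM + 0.5) of each factor in each of the 35 libraries, minus its mean over all libraries, with factors by origin in rows and libraries in columns (16 anterior to the left of the line, 19 posterior to the right). Tbr1, Satb1 and Lmo4 are high on the left, Olig3 is at its floor there, and the column of anterior B6D2F1N standard mouse 3 stands out among the subpallial factors.

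The factors also varied among libraries of the same portion. With each factor's mean of its portion removed, pairs of subpallial factors with a mean of at least 1 CPM correlated across the 35 libraries with a median r of 0.21 (Pearson, rho = 0.19, 105 pairs), pairs of pallial factors 0.13 (rho = 0.1, 91 pairs) and pairs of 1 pallial and 1 subpallial factor -0.06 (rho = -0.05, 210 pairs). The strongest pairs were Lmo3 with Nr2f2 (r = 0.83, rho = 0.78), Tshz1 with Pbx3 (r = 0.81, rho = 0.72), Tshz1 with Foxp2 (r = 0.77, rho = 0.66) and Foxp2 with Meis2 (r = 0.74, rho = 0.7). Without the anterior library of B6D2F1N standard mouse 3 the subpallial median was 0.11, and the 4 pairs had r of 0.83, 0.76, 0.71 and 0.68 in the same order. Libraries of both portions of a mouse share that mouse, and no test was made of these values.

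The strains were compared within each portion and housing, as B6D2F1N minus C57BL/6J. Cux2 was the only factor that passed, in the posterior portion of mice in standard housing, where 1 of 48 factors and 0.373% of all genes did. It stood at 7.39, 17.1, 27.2 and 21.6 CPM in the 4 C57BL/6J mice and at 36.8, 53.9, 59.7, 72.9 and 79.5 CPM in the 5 B6D2F1N mice. Every B6D2F1N mouse was above every C57BL/6J mouse. The difference was 1.73 ± 0.34 (adjusted p = 0.0421), and it was lost when any of 7 of the 9 mice was left out, with differences between 1.47 and 1.99 and adjusted p-values up to 0.184. In the other 3 strain comparisons Cux2 differed by 0.76 ± 0.23 in standard anterior and by 0.69 ± 0.26 in enriched posterior libraries (adjusted p = 0.393 and 0.503), and by -0.18 ± 0.37 in enriched anterior libraries (adjusted p = 1.0), where only 2 C57BL/6J mice were measured.

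**Figure D5:**
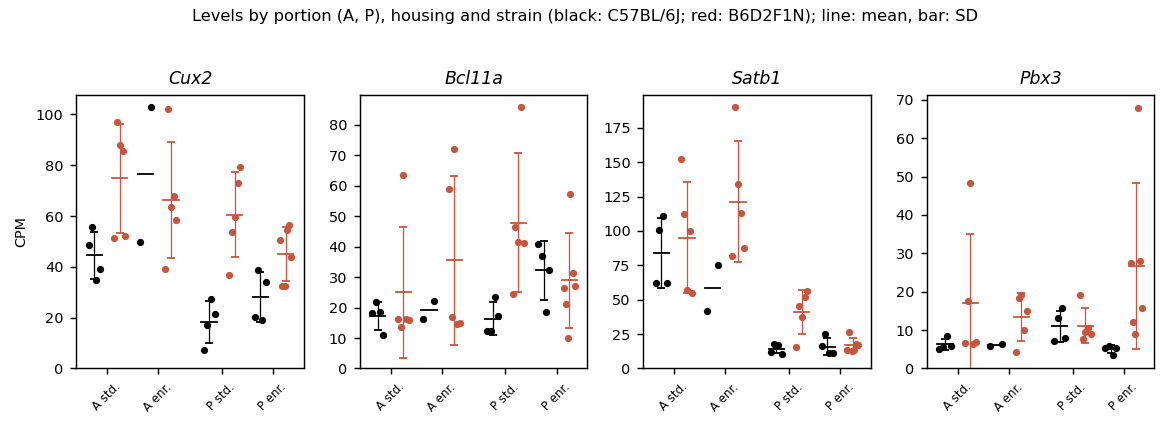
Level in CPM of Cux2, Bcl11a, Satb1 and Pbx3 in each library by portion (A anterior, P posterior), housing (std. standard, enr. enriched) and strain (black, C57BL/6J; red, B6D2F1N), with the mean as a line and the SD as a bar in groups of more than 2 libraries. The posterior standard groups of Cux2 do not overlap, with 7.39 to 27.2 CPM in C57BL/6J and 36.8 to 79.5 CPM in B6D2F1N.

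Bcl11a, Satb1 and Pbx3 came near the threshold and were picked out after their values were seen. In posterior standard libraries Bcl11a, a zinc finger factor of projection neurons and interneurons, stood at 12.3, 12.2, 23.5 and 17.3 CPM in C57BL/6J and at 24.3, 46.5, 41.6, 85.8 and 41.2 CPM in B6D2F1N, with no overlap (1.56 ± 0.33, adjusted p = 0.0775). Satb1 stood there at 12.3, 18, 16.8 and 10.6 CPM and at 15.3, 45.1, 37.6, 51.6 and 56.5 CPM, where B6D2F1N standard mouse 1 lay within the C57BL/6J range (1.53 ± 0.34, adjusted p = 0.0871). In posterior enriched libraries Pbx3, a TALE homeobox factor, stood at 5.31, 5.92, 3.43 and 5.38 CPM in the 4 C57BL/6J mice and at 27.4, 12, 8.9, 67.9, 28 and 15.8 CPM in the 6 B6D2F1N mice, again with no overlap (2.42 ± 0.50, adjusted p = 0.052).

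In standard anterior libraries no factor passed with edgeR or DESeq2, where 0.37% and 1.05% of all genes did, and 9 of 47 had an unadjusted p under 0.05, as did 9.0% of all genes. In enriched anterior libraries none passed with edgeR or DESeq2, where 0.0639% and 0.584% of all genes did, and 4 of 47 had an unadjusted p under 0.05, as did 4.33% of all genes. In enriched posterior libraries edgeR called none and DESeq2 called 1 of 48, where 0.394% and 1.33% of all genes passed, and 11 had an unadjusted p under 0.05, as did 9.11% of all genes. In standard posterior libraries edgeR called 1, where 0.318% of all genes passed and were higher in B6D2F1N, DESeq2 called 3, where 1.56% of all genes passed, and 15 had an unadjusted p under 0.05, as did 10.3% of all genes. The median difference of the factors there was 0.6, beside 0.05 for all genes. The same libraries differed in marker sums. Meningeal fibroblast markers summed to 941 to 1771 CPM in the 4 C57BL/6J mice and to 1682 CPM in B6D2F1N mouse 1, but to 98.1, 108, 56.1 and 95.9 CPM in B6D2F1N mice 2 to 5. Oligodendrocyte markers summed to 8345 to 12937 CPM in C57BL/6J and to 8595, 23938, 19835, 2399 and 2628 CPM in B6D2F1N, and thalamic markers to 465 to 673 CPM and to 579, 1232, 1315, 197 and 222 CPM. Striatal projection neuron markers summed to 783 to 2686 CPM in C57BL/6J and to 1738, 427, 459, 3508 and 2581 CPM in B6D2F1N. Choroid plexus markers summed to 266 to 1503 CPM and to 1507, 412, 1904, 4567 and 3123 CPM in the same order. Their part in the strain differences was not tested.

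Housing was compared as enriched minus standard within each strain and portion, and no factor passed with edgeR in any of the 4 comparisons, where between 0.0 and 0.0163% of all genes did. Unadjusted p-values under 0.05 were found for 8 of 46 factors in C57BL/6J anterior (6.2% of all genes), 11 of 47 in C57BL/6J posterior (10.3% of all genes), 3 of 46 in B6D2F1N anterior (6.3% of all genes) and 8 of 49 in B6D2F1N posterior libraries (6.59% of all genes). DESeq2 called 2 factors in C57BL/6J posterior libraries, where 1.3% of all genes passed, and none in the others, where 0.437%, 0.0325% and 0.0499% of all genes passed in the same order. Tbr1 had differences of opposite sign in the posterior portion of the 2 strains, 1.66 ± 0.47 in C57BL/6J (adjusted p = 0.276), with 2.14 to 5.11 CPM in the 4 standard and 3.71 to 15.3 CPM in the 4 enriched mice, and -1.28 ± 0.46 in B6D2F1N (adjusted p = 0.752), with 3.25 to 21.1 CPM in the 5 standard and 1.81 to 7.43 CPM in the 6 enriched mice. The difference between the strains in this contrast was not tested.

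Optimists and pessimists were compared separately in anterior and posterior libraries, with strain and housing in the model. None of the 47 factors tested passed in either portion with edgeR or DESeq2, where 0.00414% of genes passed in anterior and 0.00396% in posterior libraries with edgeR, and 0.087% and 0.0752% with DESeq2. No factor had an unadjusted p under 0.05 in anterior libraries, where 4.13% of all genes did, and 5 did in posterior libraries, where 3.5% of all genes did: Mef2c, Zfhx4, Isl1, Tshz2 and Sp8.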

How the data were processed

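The series comprised 35 RNA-seq libraries of polyA RNA from laser-captured amygdala cells of 19 mice, sequenced as single reads of 72 bases. The deposited values were raw read counts per gene, which the authors made with Trimmomatic 0.38, HISAT2 2.1.0, SAMtools 1.8 and HTSeq 0.11.2 on GRCm38, as named in the methods and the submitters' processing notes. The annotation release and the strand setting of the counting are not given in the sources used here. The rows of HTSeq that name no gene were left out of library sizes; they hold 13.68 to 26.43% (no feature), 6.23 to 10.93% (not unique) and 3.06 to 3.74% (ambiguous) as shares of the sum of all rows. Of 595 library pairs, 0 were identical.

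Symbols, positions and exon lengths were taken from a GENCODE annotation of GRCm38. Counts were tested with the quasi-likelihood F test of edgeR 4.0.16 in R 4.3.3 with TMM scaling, on genes whose counts summed to 10 or more in the libraries compared. P-values were adjusted after Benjamini and Hochberg over all genes tested, with a threshold of 0.05. The SE is the absolute log2 fold change divided by the square root of F. Portions were compared with the mouse as a block, from the mouse numbers in the labels, strains within housing and portion, housing within strain and portion, and optimists against pessimists with terms for strain and housing. Every mouse is a separate animal, but the study kept mice of the same strain together in shared cages. Cage was not a term in any model, and cage-mates were treated as independent. In the strain and housing comparisons, an effect of cage cannot be told apart from strain or housing. The correlation of deviations between both libraries of a mouse had a median of 0.0679 (-0.13 to 0.203) over 16 mice and 13397 genes. CPM were scaled by TMM over all libraries, and the zero limit was set at 3 counts, which covers counting error only. DESeq2 1.42.0, its size factors in edgeR, other count filters, fits without the block and fits without single mice were alternatives. When single mice were left out of the fits over both strains, the dispersion trend of the full fit was kept and the quasi-likelihood dispersion was estimated again. The scripts were tested on simulated data.

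The factors, their groups and the companion and marker lists were chosen with earlier results of these data known. Values are given in full for factors that passed between portions in both strains or over both strains, for any that passed in a strain, housing or bias comparison, for any at or under 3 counts in all libraries of 1 portion and called, and for the most abundant per length of each origin. Other genes come from the companion and marker lists, at most 6 per list. Labels name no batch. Training lasted 37 to 90 days, so mice differed in age. Promoters are from RefSeq on GRCm38.p6, matched by symbol for 42 of 49 factors. Those of Dlx5, Dlx6, Foxp2, Pbx3, Zfhx4, Pou3f1 and Tshz1 were not matched.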

Additional observations from a re-analysis of the deposited data

Results flagged for a closer look

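Single libraries lay far from the others of their group of 4 to 6 by Dixon's criterion, which chance meets in about 1 in 20 groups. It was applied to 119 groups and was met in 11. In posterior C57BL/6J enriched mouse 4, Tbr1 stood at 3.71 CPM against 12.8 to 15.3 CPM in the other 3 mice and Neurod2 at 14.9 CPM against 27.4 to 30.7 CPM. In anterior B6D2F1N standard mouse 3, Neurod6 stood at 49.1 CPM against 133 to 193 CPM and Tshz1 at 120 CPM against 24.6 to 36.8 CPM in the other 4 mice. In posterior C57BL/6J standard mouse 1, Tshz1 stood at 24.5 CPM against 48.6 to 55.3 CPM and Tcf7l2 at 37.4 CPM against 58.3 to 61.4 CPM. In posterior C57BL/6J standard mouse 3, Neurod6 stood at 42.6 CPM against 30.3 to 32 CPM. Mef2c reached 1066 CPM in anterior B6D2F1N enriched mouse 2 against 445 to 539 CPM. Nr2f1 stood at 24.2 CPM in posterior B6D2F1N standard mouse 2 against 38.8 to 44 CPM. Lhx8 stood at 1.65 CPM in posterior B6D2F1N enriched mouse 5 against 0 to 0.185 CPM, and at 0.0435 CPM in posterior C57BL/6J enriched mouse 1, where the other 3 mice had 0 reads. The latter is 1 read, under the limit of 3 reads, and is not resolved from 0.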

How the results depend on the processing

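None of the 32 called differences, for which alternatives were run, changed sign. The number of factors called between portions was 6 in C57BL/6J, 11 with DESeq2 and 13 without a minimum count, and 9 in B6D2F1N, 14 with DESeq2 and 14 without a minimum count. Of all genes, edgeR called 3.64% and DESeq2 5.96% in C57BL/6J, and 4.0% and 7.18% in B6D2F1N. In posterior libraries the strain calls were 1 in standard housing, 3 with DESeq2, 3 without a minimum count and 2 with 1 fit for all 4 groups, and 0 in enriched housing, 1 under each of these 3 alternatives. DESeq2 called 2 factors for housing in C57BL/6J posterior libraries, and without a minimum count 1 was called in C57BL/6J anterior libraries and 3 for bias in posterior libraries, against 0 in each. The causes were not tested. For the alternatives other than DESeq2, shares of all genes are not given in this section. Whether their counts of factors follow a change over all genes cannot be read from them. When single mice were left out, calls between portions ranged from 6 to 9 (C57BL/6J), 6 to 10 (B6D2F1N) and 13 to 16 (both strains), strain calls from 0 to 3 (standard posterior) and 0 to 1 (enriched posterior), and housing calls in B6D2F1N posterior libraries from 0 to 1.

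Without the mouse as a block, 6 factors were called in C57BL/6J, where Neurod6 was lost and Sp8 gained, 6 in B6D2F1N, where Neurod6, Pax6 and Tshz2 were lost, and 16 over both strains. Alternatives chosen after seeing the data left out mice whose libraries stood apart. Without B6D2F1N standard mice 1 and 3, 8 were called in B6D2F1N and 14 over both strains, and without B6D2F1N enriched mice 1 and 3, 8 and 12. In B6D2F1N the first of these settings lost Neurod1 and Tshz2 and gained Neurod2. The second lost Neurod6, Pax6 and Tshz2 and gained Bcl11a and Zbtb20. Lhx8, Otp, Sim1 and Eomes lie near the limit of 3 reads, so depth limits what can be said of them.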
